A study of Mus musculus with 45 samples.

Results

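The inner cell mass (ICM) of the mouse blastocyst was compared with embryonic stem (ES) cells held in the naive state in culture, in the untreated arms of a study of the transcription factor GABPA. The comparison took 4 of the 18 RNA-seq libraries, and of the 45 samples of all assays, and was made over every gene: 15660 of the 55385 genes in each table had enough reads to be tested. The E4.5 ICM group was 2 libraries from Gabpa-dTAG/dTAG embryos. The embryos came from in vitro fertilization, with superovulated mothers of 7 to 8 weeks and fathers of 8 to 12 weeks from a knock-in line crossed back to C57BL/6J for at least 2 generations, and they grew in KSOM medium. They received DMSO, the vehicle of the degrader dTAG13, from 84 h post-fertilization (hpf), and at 100 hpf, staged by the study as mid-blastocyst and labelled E4.5, the trophectoderm (TE) was removed by immunosurgery. The 2iES group was 2 libraries from Gabpa-dTAG/dTAG cells of the E14 line, tagged in culture and picked as single clones, given DMSO and grown on gelatin with LIF, the MEK inhibitor PD0325901 (0.5 µM), the GSK3 inhibitor CHIR99021 (3 µM) and 15% serum. All 4 samples thus carried the FKBP F36V degradation tag on GABPA and none received the degrader.

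The E4.5 ICM holds 2 lineages, the epiblast (EPI), which forms the fetus, and the primitive endoderm (PrE), which forms the yolk sac lining. FGF4 from EPI precursors signals through FGF receptors and ERK to turn ICM cells towards PrE, and ES cells are derived from the epiblast side. The 2i medium blocks ERK signalling and stabilizes β-catenin, while LIF acts through STAT3, and together they hold ES cells in a state regarded as close to the late epiblast. The number of embryos pooled in an ICM library is not given in the sources used here. In such bulk samples fewer cells of a type and less RNA per cell cannot be told apart. Tissue source, culture, genetic background, cell clone and library batch all changed with the group, so their parts in any difference below cannot be told apart.

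Levels are given in TPM, transcript abundance corrected for length and scaled to the same total in every library, as library 1 and then library 2 of each group. Differences are fitted log2 fold changes with their standard error (SE), coded as 2iES cells minus E4.5 ICM, from the quasi-likelihood test of edgeR with Benjamini-Hochberg adjusted p-values over all 15660 genes (n = 2 libraries in each group). A value given without a library is the log2 fold change of the fit that left it out, and a value given with library totals, upper-quartile scaling, DESeq2 or the length offset (transcript length entered as an offset) is that of the fit with this change. A gene was called where the adjusted p was under 0.05, the fold change at least 2 and the mean FPKM at least 1 in either group. By this rule 2376 genes were higher in 2iES cells, 15.2% of those tested, and 2875 were higher in E4.5 ICM, 18.4% of those tested. When libraries were scaled by their totals alone the counts were 1427 and 4057, so the share of calls in favour of 2iES cells fell to 26.02% from 45.2%, with all fold changes 0.39 lower on the log2 scale at the median. Upper-quartile scaling moved the median the other way, by 0.11. The median fitted value over all genes was -0.05. The fitted values sat 0.54 above the log2 ratio of the mean TPM at the median, so equal TPM corresponds to a fitted value above 0. On the 2 scales 5 called genes pointed in opposite directions. Where libraries of the groups are said below not to overlap in called genes, this follows largely from the call and adds no support. The share of all genes without overlap was not counted.

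**Figure D1:**
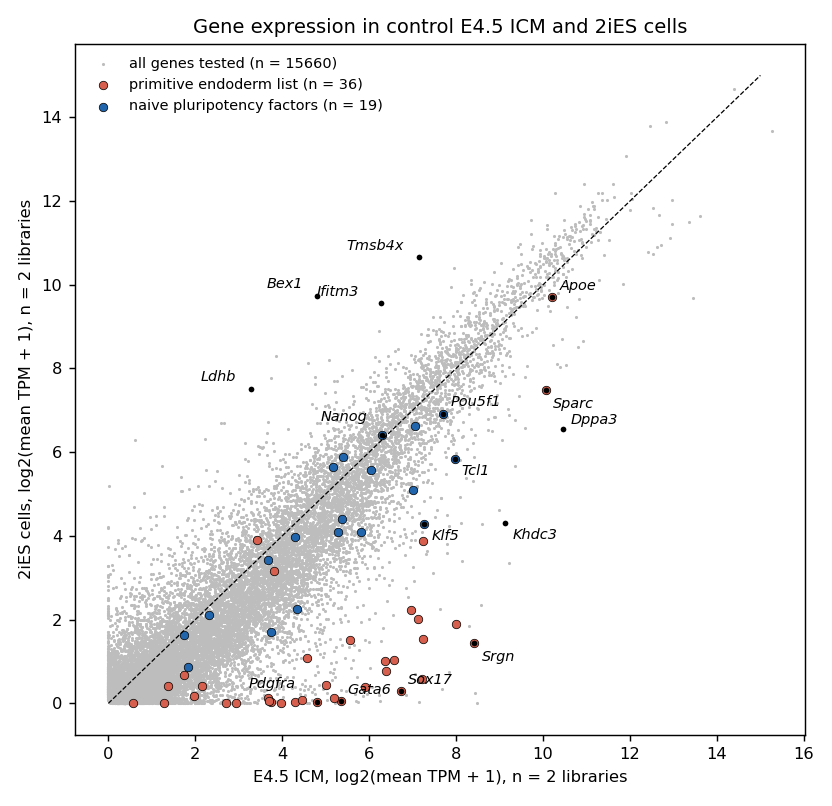
Level of each tested gene in E4.5 ICM (x axis) and in 2iES cells (y axis), as log2(mean TPM + 1) over 2 libraries, with the PrE list in red, the naive pluripotency factors in blue, other labelled genes in black and a dashed line at equal levels. Most PrE genes, such as Gata6 and Pdgfra, lie near 0 on the 2iES axis, while Nanog and Pou5f1 lie close to the line and Tmsb4x, Bex1 and Ldhb lie above it.

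The 4 libraries held 19246159 to 27660050 assigned counts. Spearman's rank correlation of TPM across the tested genes was 0.992 between the ICM libraries, 0.984 between the 2iES libraries and 0.866 to 0.868 between the groups, as a description over genes that share a library. The ICM libraries stood close to each other: their median chi-square over genes was 1.63 times that of sampling alone, against 16.1 for the 2iES libraries and 1.69 to 14.9 for the replicate pairs of the other conditions. Both ICM libraries were kept as replicates, and leaving out either left 2184 to 2189 genes higher in 2iES cells and 2683 to 2704 higher in E4.5 ICM. The sources call the replicates independent biological ones, but the p-values measure only the spread between these libraries. Library 1 of the 2iES cells stood apart in mitochondrial transcripts, described below.

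The labelled tissues were checked with marker genes. The summed level of 6 EPI markers was 734 and 752 TPM in the ICM libraries and 585 and 640 TPM in the 2iES libraries, with all 6 at or above 1 TPM in both groups. The 9 PrE markers summed to 578 and 587 TPM in E4.5 ICM, all at or above 1 TPM, and to 5.18 and 3.42 TPM in 2iES cells, where 1 of 9 (Dab2) reached 1 TPM. The 8 TE markers summed to 90.2 and 97.1 TPM in E4.5 ICM and to 156 and 118 TPM in 2iES cells. The defining TE gene Cdx2 was measured at 0.29 and 0.6 TPM in E4.5 ICM and 0.16 and 0.06 TPM in 2iES cells, and Elf5 at 0.02 and 0.17 TPM in E4.5 ICM and 0 and 0 TPM in 2iES cells, while keratins carried most of the sum. The 8 fibroblast markers summed to at most 2.11 TPM in any of the 4 libraries and the 8 cumulus cell markers to at most 0.82 TPM.

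Gabpa (chr16:84834925-84863779), an ETS factor and the DNA-binding subunit of GABP, was measured at 10.1 and 11.2 TPM in E4.5 ICM and 7.37 and 5.76 TPM in 2iES cells. Its log2 fold change was -0.46 ± 0.11 (edgeR adjusted p = 0.0138), a difference smaller than 2-fold, so Gabpa was not called. With an offset for transcript length the value was 0.03. The partner subunits Gabpb1, at 32.3 and 30.4 TPM against 18.6 and 17.1 TPM, and Gabpb2, at 3.76 and 3.91 TPM against 2.58 and 2.89 TPM, were not called either. Gabpb2 passed with library totals (-1.12). DESeq2 called none of the 3. In edgeR Gabpb2 also passed the adjusted p (0.0224), and like Gabpa it missed the 2-fold limit. The ICM libraries were the higher ones in TPM for each of the 3 subunits.

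Among the gene lists the primitive endoderm genes had the median fold change farthest from 0. Of 35 tested members of a list of 36, 32 were higher in E4.5 ICM and 1 in 2iES cells, with a median log2 fold change of -6.39, against 18.4% and 15.2% of all genes tested. All 9 listed PrE regulators were higher in E4.5 ICM. Among them are the GATA factors that drive the lineage. Gata6 (chr18:11052064-11085635) was measured at 38.7 and 40.5 TPM in E4.5 ICM and 0.04 and 0.05 TPM in 2iES cells, a log2 fold change of -9.12 ± 0.18 (edgeR adjusted p = 9.23e-06). Gata4 (chr14:63198922-63271692) was measured at 35.1 and 36.3 TPM against 0.11 and 0.07 TPM, a fold change of -8.13 ± 0.20 on the log2 scale. The ICM libraries were high and alike in both genes, and the 2iES libraries stayed at or under 0.11 TPM. Sox17 (chr1:4490931-4497354), an endoderm factor downstream of GATA6, was measured at 101.33 and 108 TPM against 0.37 and 0.08 TPM. Its relative Sox7 was measured at 18.6 and 18.5 TPM against 0.02 and 0.01 TPM and rested on so few 2iES reads that its ratio is given from the counts, 879.8-fold (95% Poisson interval 301 to 4266). The forkhead factor Foxa2 was measured at 12.4 and 12.3 TPM against 0 and 0.03 TPM, a ratio of 532-fold (95% Poisson interval 147 to 4397). Tfec had no read in either 2iES library, and at 5.85 and 5.12 TPM in E4.5 ICM it was at least 74.4-fold higher there against a floor of 3 counts per library.

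The receptors and the endocytic machinery of PrE followed the same order. Pdgfra, the receptor used to recognize PrE cells, was measured at 27.8 and 26.3 TPM in E4.5 ICM and 0.02 and 0.01 TPM in 2iES cells, a log2 fold change of -10.09 ± 0.21 (edgeR adjusted p = 1.04e-05). Amn and Cubn, which form the cubilin uptake complex, were measured at 80.1 and 84.1 TPM against 1.04 and 0.39 TPM and at 11.6 and 12.2 TPM against 0.03 and 0.06 TPM. Dab2, their adaptor, kept a low level in 2iES cells, 3.75 and 2.38 TPM, against 141 and 135 TPM. Lrp2, the other large uptake receptor, differed less, with a log2 fold change of -1.47 ± 0.17. All 7 listed receptor and uptake genes were higher in E4.5 ICM.

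PrE lays down a basement membrane, and 10 of 11 listed matrix genes were higher in E4.5 ICM. The laminin chain Lama1 was measured at 144 and 151 TPM against 0.47 and 0.51 TPM, with a log2 fold change of -7.17 ± 0.14 (edgeR adjusted p = 9.23e-06). The type IV collagen chains Col4a1 and Col4a2, which lie head to head on chromosome 8, had log2 fold changes of -7.08 ± 0.16 and -7.94 ± 0.16. The collagen chaperone Serpinh1 was measured at 249 and 264 TPM against 2.7 and 2.74 TPM. The groups did not overlap for any of these genes. Sparc, a matrix-binding protein, was more abundant than the rest in both groups, at 1054 and 1087 TPM against 198 and 159 TPM, and Lamc1, shared by most laminins, was measured at 147 and 152 TPM against 13.01 and 14.2 TPM. Nid2, a nidogen, was the matrix member not called, at 13.8 and 12.1 TPM against 7.73 and 8.32 TPM.

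Among the secreted and other PrE genes the order was less uniform: 6 of 8 tested were higher in E4.5 ICM. The proteoglycan gene Srgn was measured at 342 and 342 TPM against 1.71 and 1.71 TPM. Dkk1, a secreted WNT inhibitor, was measured at 124 and 125 TPM against 3.62 and 3.80 TPM, and the FGF ligand Fgf10 at 22.5 and 22.7 TPM against 1.21 and 1.03 TPM. Apoe, an apolipoprotein, was abundant in both groups, 1167 and 1210.3 TPM against 974 and 699.6 TPM, and was not called. Cited1, a transcriptional coactivator, was the member higher in 2iES cells, with 10.7 and 8.75 TPM against 15.7 and 12.1 TPM and a log2 fold change of 1.07 ± 0.19, which fell under 2-fold without 2iES library 1 (0.91) or without ICM library 2 (0.93). Ttr, a later visceral endoderm gene, stayed at or under 0.57 TPM in the ICM and had no read in 2iES cells. Cited1 (0.67 with library totals, 0.37 with the length offset) was no longer called under those settings.

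**Figure D2:**
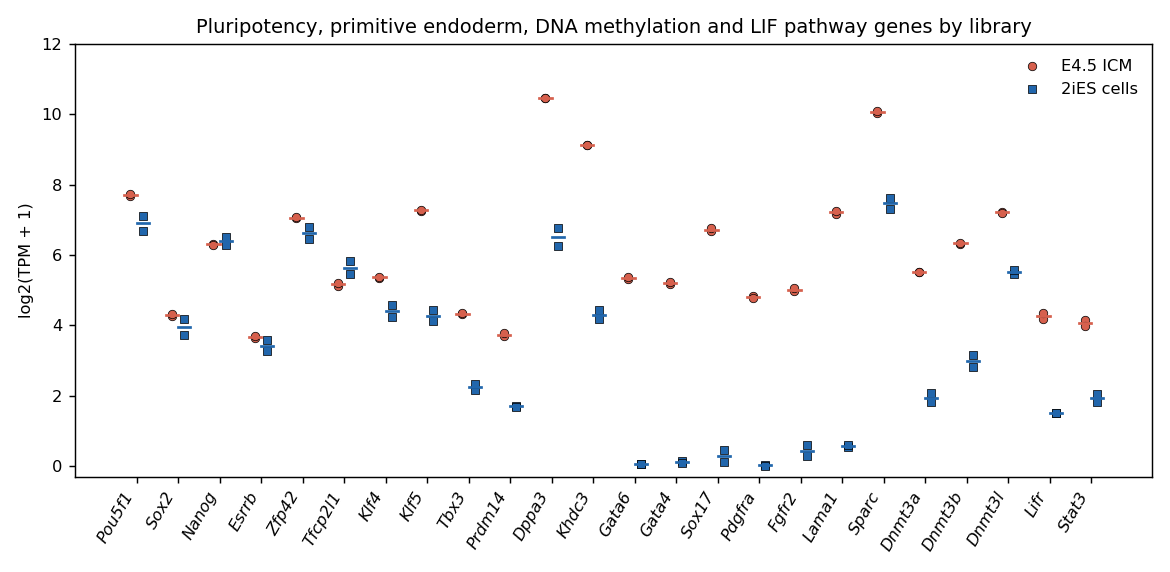
Levels of pluripotency, PrE, DNA methylation and LIF pathway genes as log2(TPM + 1), with 1 red circle per ICM library, 1 blue square per 2iES library and a short line at each group's mean. Gata6, Gata4, Sox17, Pdgfra, Fgfr2 and Lama1 are near 0 in both 2iES libraries, whereas Nanog overlaps between the groups and Sox2 and Esrrb lie close together.

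The study lists of lineage genes, which its authors took from public E4.5 single-cell data and not from these libraries, held 189 tested EPI genes and 251 tested PrE genes. Of the PrE genes 171 were higher in E4.5 ICM (68.1%) and 7 in 2iES cells (2.79%), against 18.4% and 15.2% of all genes. The median log2 fold change of these PrE genes was -1.54. Among those of the late stage 83 of 99 were higher in E4.5 ICM, and among those of the early stage 88 of 152. Of the EPI genes 64 were higher in 2iES cells (33.9%) and 22 in E4.5 ICM (11.6%), against 15.2% and 18.4% of all genes. The median log2 fold change of the EPI genes was 0.54. With library totals as the only scaling those EPI counts became 41 and 36, and with transcript length as an offset 54 and 28. The late EPI genes had 32 of 71 higher in 2iES cells and 7 higher in E4.5 ICM, and the early EPI genes 32 and 15 of 118.

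The EPI genes with the largest differences towards 2iES cells included cytoskeletal and membrane genes. Tmsb4x (chrX:167207093.0-167209315.0), which binds actin monomers, was measured at 150.4 and 129.7 TPM against 1614 and 1617 TPM, a log2 fold change of 4.06 ± 0.11 (edgeR adjusted p = 1.88e-05). Ifitm3 and Ifitm1, small interferon-induced membrane proteins of 1 cluster on chromosome 7, were measured at 78.0 and 75.9 TPM against 768 and 745 TPM and at 26.5 and 25.5 TPM against 194 and 200.3 TPM. The deubiquitinase Uchl1 was measured at 9.93 and 11.7 TPM against 79.3 and 59.1 TPM, and the apolipoprotein Apoa2 at 36.9 and 35.9 TPM against 189.9 and 156 TPM. Rasgrp2, Ubd and the non-coding Gm26564 completed the 8 with the largest difference. In each of these the 2iES libraries were the high ones, which follows from their choice as called genes with the largest difference. In the other direction stood Khdc3, of the maternal subcortical complex, at 559 and 562 TPM against 20.6 and 17.2 TPM, and Dppa3, at 1407 and 1417 TPM against 75.9 and 108 TPM. The ubiquitin-conjugating gene Ube2dnl1 was measured at 66.1 and 60.3 TPM against 1.61 and 1.93 TPM. Mybl2, Ctbp2, Elobl and the spermine synthase gene Sms were also higher in E4.5 ICM, with log2 fold changes of -1.33, -1.20, -1.23 and -1.67. Sms-ps has the same reads as Sms in all of its 31-base words, so its values are uncertain, and the same holds in part for Khdc3 (36.7% of its words are found in another gene). Mybl2 (-0.83 with the length offset) was no longer called under those settings.

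The leading PrE genes of the study list in E4.5 ICM were Aqp8, Pth1r, Timd2 and Nostrin. The water channel gene Aqp8 (chr7:123462291.0-123468004.0) was measured at 136 and 146 TPM against 0 and 0.06 TPM. Pth1r, the receptor for parathyroid hormone-related peptide in PrE derivatives, was measured at 73.9 and 76.9 TPM against 0.04 and 0.04 TPM, a log2 fold change of -10.39 ± 0.19 (edgeR adjusted p = 9.23e-06). Timd2, a ferritin receptor, was measured at 334 and 359.6 TPM against 0.09 and 0.29 TPM. The ICM libraries were high and the 2iES libraries at or under 0.29 TPM in all 3. Cpn1, Srgn, Lama1 and Col4a1 followed, with log2 fold changes of -7.15, -7.15, -7.17 and -7.08. Fth1, the ferritin heavy chain, and Me2, a mitochondrial malic enzyme, were the PrE genes with the largest difference towards 2iES cells, at 1079 and 1081 TPM against 2072 and 1608 TPM and 27.7 and 27.6 TPM against 56.5 and 57.6 TPM. Fth1 (0.91 with library totals, 0.61 with the length offset) and Me2 (0.81 with library totals) were no longer called under those settings.

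The core pluripotency factors differed little between embryo and culture. Of 19 listed naive factors 7 were higher in E4.5 ICM (36.8%) and 1 in 2iES cells (5.26%), against 18.4% and 15.2% of all genes. The list had a median log2 fold change of -0.25. Pou5f1 was measured at 203 and 213 TPM in E4.5 ICM and 138 and 102 TPM in 2iES cells, with a log2 fold change of -0.25 ± 0.13 (edgeR adjusted p = 0.147). Sox2 was measured at 18.2 and 18.9 TPM against 12.3 and 17.2 TPM, with a log2 fold change of 0.21 ± 0.20. Nanog was measured at 78.5 and 77.5 TPM against 76.8 and 90.3 TPM, and its log2 fold change of 0.63 ± 0.12 passed the adjusted p (0.00554) but not the 2-fold limit. Sall4 and Zfp42 (REX1) had log2 fold changes of -0.02 ± 0.15 and 0.11 ± 0.15. None of the 4 core factors was called by edgeR or DESeq2, and Nanog alone passed an unadjusted p of 0.05. A p that misses the threshold does not show that the levels were equal.

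The naive factors that did differ were mostly higher in the embryo. Klf5, a Krüppel-like factor active in ICM and TE, was measured at 153 and 153 TPM in E4.5 ICM and 16.4 and 20.6 TPM in 2iES cells, with a log2 fold change of -2.50 ± 0.15 (edgeR adjusted p = 0.000126). Klf2 and Klf4 were measured at 37.1 and 39.4 TPM against 17.04 and 15.3 TPM and 39.9 and 40.5 TPM against 17.8 and 22.9 TPM and were not called. Tcl1, a coactivator of AKT, was measured at 247 and 251 TPM against 49.5 and 62.7 TPM. Tbx3 and Prdm14, transcription factors that repress differentiation, were measured at 18.9 and 19.4 TPM against 3.52 and 4.02 TPM and 12.03 and 12.7 TPM against 2.30 and 2.23 TPM. Spic, Mybl2 and Tfap2c were the other 3 members higher in E4.5 ICM, with log2 fold changes of -1.24, -1.33 and -1.05. Tfap2c lost its call without 2iES library 2 (-0.97) or ICM library 1 (-0.97). In Klf5, Tcl1, Tbx3 and Prdm14 the ICM libraries were all above the 2iES libraries. Nr0b1 (DAX1), on the X chromosome, was the factor called higher in 2iES cells, at 41.3 and 41.6 TPM against 66.3 and 49.5 TPM and a log2 fold change of 1.02 ± 0.14, which was 0.83 without 2iES library 1. The nuclear receptor genes Esrrb and Nr5a2 had log2 fold changes of 0.26 ± 0.15 and 0.21 ± 0.24, and the LIF target Tfcp2l1 one of 0.54 ± 0.12, none of them called. Tfap2c (-0.72 with the length offset, -0.94 with upper-quartile scaling) and Nr0b1 (0.62 with library totals, 0.99 with the length offset) were no longer called under those settings.

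Of 24 genes that accompany pluripotency 4 were higher in 2iES cells (16.7%) and 5 in E4.5 ICM (20.8%), near the 15.2% and 18.4% of all genes. Dppa3 (Stella), which shields the maternal genome from demethylation, was 1 of the largest differences at 1407 and 1417 TPM against 75.9 and 108 TPM, a log2 fold change of -3.39 ± 0.21. Dppa5a was the most abundant of the list in both groups, 21478 and 21671 TPM against 24136 and 27969 TPM, and was not called. Of the words of Dppa3 29.6% and of those of Dppa5a 57% occur in another gene. Fbxo15 and Lin28a were higher in E4.5 ICM, at 348 and 342 TPM against 65.2 and 104 TPM and 10.4 and 10.47 TPM against 2.79 and 3.60 TPM, and fell under 2-fold without 2iES library 1 (-0.95 and -0.93). Zfp57, Tdh, Gdf3 and Morc1 were higher in 2iES cells. Zfp57, a guardian of imprints, was measured at 66.1 and 62.6 TPM against 143 and 118 TPM, and Tdh, the threonine dehydrogenase on which mouse ES cells depend, at 137 and 146 TPM against 235 and 186 TPM, with a log2 fold change of 0.995 without 2iES library 1. Utf1 and Tdgf1 were not called, with log2 fold changes of 0.04 ± 0.18 and 0.13 ± 0.21. Lin28a (-0.65 with the length offset), Zfp57 (0.97 with library totals), Tdh (0.75 with library totals) and Gdf3 (0.69 with library totals) were no longer called under those settings.

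Of 25 genes of the formative and primed states 18 could be tested. Of these 5 were higher in 2iES cells (27.8%) and 7 in E4.5 ICM (38.9%), against 15.2% and 18.4% of all genes. Fgf5, the usual marker of the primed epiblast, stood at 0.31 and 0.04 TPM in E4.5 ICM and 0 and 0 TPM in 2iES cells and was below the filter. Otx2 was measured at 1.83 and 1.25 TPM against 0.57 and 0.59 TPM and lost its call without 2iES library 1 (-0.85) or ICM library 1 (-0.75), and Pou3f1 did not exceed 0.14 TPM in any library. Dnmt3b and Dnmt3a were among the members higher in E4.5 ICM. Fst, an activin inhibitor, was higher in 2iES cells at 1.07 and 1.19 TPM against 6.78 and 6.81 TPM, and so were Krt18, Sox11, Etv4 and Lin28b. Without 2iES library 2 Sox11 missed the FPKM limit (log2 fold change 2.985), and without ICM library 1 Etv4 the 2-fold limit (0.99). Otx2 (-0.98 with the length offset, -0.97 with DESeq2, -0.91 with upper-quartile scaling) and Etv4 (0.63 with library totals) were no longer called under those settings.

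The TE genes did not separate the groups in 1 direction. Of 31 tested, 7 were higher in 2iES cells (22.6%) and 9 in E4.5 ICM (29.0%), against 15.2% and 18.4% of all genes. Tead4, a TE regulator, was measured at 14.3 and 12.7 TPM against 2.79 and 2.23 TPM, Gata3 at 1.56 and 1.52 TPM against 0.36 and 0.52 TPM and the claudin gene Cldn7 at 70.2 and 73.3 TPM against 19.24 and 13.2 TPM, all higher in E4.5 ICM, although Gata3 reached only -0.99 without 2iES library 1. The keratin Krt18 was measured at 22.8 and 24.9 TPM against 98.3 and 76.8 TPM, higher in 2iES cells, whereas its partner Krt8, at 39.3 and 42.6 TPM against 36.9 and 27.4 TPM, was not called. Id2, Ascl2 and Gata2 were also higher in 2iES cells, with log2 fold changes of 2.24 ± 0.12, 2.17 ± 0.26 and 2.06 ± 0.21. Enpep, an aminopeptidase, had no read in 2iES cells and was at least 91-fold higher in E4.5 ICM. The study's lists from E3.5 embryos gave 119 of 803 ICM genes and 128 of 909 TE genes higher in 2iES cells. Higher in E4.5 ICM were 253 and 266. These were 14.8% and 14.1% for 2iES cells, near the 15.2% of all genes, and 31.5% and 29.3% for E4.5 ICM, against 18.4%. Gata3 (-0.86 with the length offset) was no longer called under those settings.

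**Figure D3:**
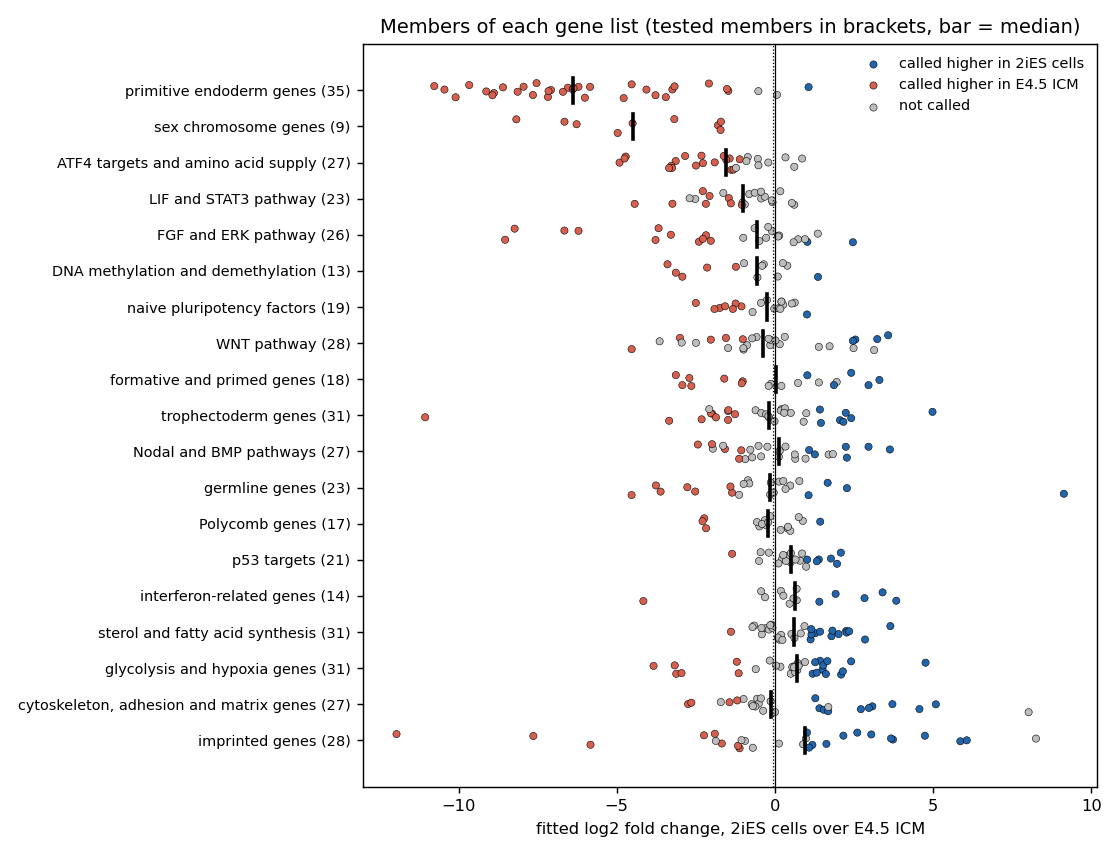
Fitted log2 fold change (x axis, 2iES cells minus E4.5 ICM) of each tested member of the gene lists (y axis), coloured by its call, with a black bar at the median of each list, a solid line at 0 and a dotted line at the median of all genes tested. The PrE list has its median at -6.39 and the ATF4 list at -1.54, and most sterol and glycolysis calls lie to the right of 0.

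Of 26 tested genes of the FGF and ERK pathway 11 were higher in E4.5 ICM (42.3%, against 18.4% of all genes), 2 were higher in 2iES cells and 13 were not called, with a median log2 fold change of -0.57. The ligand Fgf4 was measured at 22.6 and 22.6 TPM in E4.5 ICM and 10.51 and 11.6 TPM in 2iES cells and its log2 fold change of -0.49 ± 0.12 did not reach 2-fold. Among its receptors Fgfr1 was measured at 4.39 and 4.62 TPM against 3.62 and 3.62 TPM and was not called. Fgfr2, the receptor enriched in PrE, was measured at 30.7 and 32.1 TPM against 0.51 and 0.22 TPM, a log2 fold change of -6.21 ± 0.23 (edgeR adjusted p = 4.25e-05). Fgfr3 was measured at 2.65 and 2.68 TPM against 0 and 0.01 TPM, a ratio of 463-fold (95% Poisson interval 83.2 to 18299.9) from the counts. Both ICM libraries exceeded both 2iES libraries in Fgfr2 and Fgfr3.

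The immediate early genes, which ERK induces, differed from each other. Egr1 was measured at 5.42 and 4.75 TPM against 0.01 and 0.01 TPM, a ratio of 339-fold (95% Poisson interval 93.7 to 2796). Fos and Junb were measured at 13.3 and 13.1 TPM against 0.81 and 0.62 TPM and 23.6 and 22.7 TPM against 4.03 and 2.88 TPM, both higher in E4.5 ICM. Ier2 and Ier3, of the same class, were measured at 83.2 and 88.9 TPM against 77.9 and 49.8 TPM and 3.40 and 3.17 TPM against 4.83 and 3.95 TPM and were not called, Ier3 passing 2-fold without 2iES library 2 (1.09). The ERK phosphatase Dusp4 was measured at 11.97 and 12.6 TPM against 0.08 and 0.08 TPM, with a log2 fold change of -6.65 ± 0.21 (edgeR adjusted p = 2.77e-05), and Dusp5 and Spry1 had log2 fold changes of -2.40 ± 0.22 and -2.18 ± 0.20. Myc was measured at 46.9 and 45.7 TPM against 9.78 and 6.52 TPM. These targets did not move as a block, since Dusp6 (6.44 and 5.36 TPM against 7.71 and 5.91 TPM), Spry2 (15.7 and 16.3 TPM against 15.9 and 17.3 TPM) and Etv5 (22.6 and 22.4 TPM against 12.7 and 14.1 TPM) were not called, and Etv4 and the cyclin gene Ccnd1 (7.39 and 7.96 TPM against 32.7 and 22.9 TPM) were higher in 2iES cells.

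In the LIF and STAT3 pathway 8 of 23 tested genes were higher in E4.5 ICM (34.8%), with a median log2 fold change of -1.02. None was higher in 2iES cells by edgeR or DESeq2. Over all genes tested 18.4% were higher in E4.5 ICM and 15.2% in 2iES cells. Tfcp2l1 alone passed the adjusted p towards 2iES cells (edgeR adjusted p = 0.0112), and it missed the 2-fold limit. The LIF receptor Lifr was measured at 17.2 and 19.3 TPM in E4.5 ICM and 1.84 and 1.82 TPM in 2iES cells, a log2 fold change of -3.24 ± 0.25 (edgeR adjusted p = 0.000233). Its co-receptor Il6st (gp130) was measured at 4.62 and 4.03 TPM against 0.59 and 0.72 TPM, and Stat3 at 16.9 and 14.7 TPM against 3.12 and 2.51 TPM. All 3 were lower in each 2iES library than in each ICM library. Of the targets and feedback genes Pim2, Bcl3, Cish and Junb were higher in E4.5 ICM, of which Bcl3 lost its call without 2iES library 2 (-0.84) and Cish without ICM library 2 (-1.29). By contrast Socs3, the usual readout of LIF, was measured at 1.96 and 2.05 TPM against 1.25 and 1.33 TPM, a log2 fold change of -0.10 ± 0.19. Lif itself stood at 0.81 and 0.62 TPM against 0.53 and 0.22 TPM. Bcl3 (-0.99 with DESeq2, -0.93 with upper-quartile scaling) was no longer called under those settings.

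The WNT pathway gave 4 of 28 tested genes higher in 2iES cells (14.3%) and 5 in E4.5 ICM (17.9%), near the shares of all genes. The target Cdx1 was measured at 1.70 and 1.56 TPM against 12.4 and 8.87 TPM, a log2 fold change of 3.24 ± 0.22, and the receptor Tnfrsf19 at 0.25 and 0.78 TPM against 4.73 and 4.54 TPM. Tcf7 was measured at 0.33 and 0.36 TPM against 1.23 and 1.57 TPM. Axin2, the general feedback target of β-catenin, was measured at 2.34 and 2.75 TPM against 1.33 and 1.24 TPM, a log2 fold change of -0.88 ± 0.21 that was not called, and Sp5 stayed at or under 0.41 TPM. Tcf7l1, the repressor that β-catenin relieves in naive cells, was higher in E4.5 ICM at 12.5 and 12.8 TPM against 2.72 and 3.10 TPM. The WNT inhibitors Dkk1 and Notum were also higher in E4.5 ICM, of which Notum lost its call without 2iES library 2 or either ICM library (-0.90 to -1.05). Axin2, for its part, was called without ICM library 1 (-1.02). Notum (-0.97 with DESeq2, -0.90 with upper-quartile scaling) was no longer called under those settings.

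Of the Nodal and BMP pathways, 6 of 27 tested genes were higher in 2iES cells and 5 in E4.5 ICM. These were 22.2% and 18.5%, against 15.2% and 18.4% of all genes tested. The ligand Nodal was measured at 12.4 and 11.3 TPM against 14.4 and 11.2 TPM and was not called. Bmp4, at 35.2 and 37.3 TPM against 14.4 and 11.2 TPM, missed the 2-fold limit with a log2 fold change of -0.94 ± 0.12 (-1.05 without 2iES library 1), and Bmp8a was higher in E4.5 ICM at 3.90 and 4.30 TPM against 0.61 and 0.4 TPM. The inhibitor of Nodal, Lefty1, was measured at 14.3 and 14.6 TPM against 2.85 and 2.24 TPM, a log2 fold change of -1.99 ± 0.17, and its neighbour Lefty2 at 24.6 and 25.6 TPM against 12.9 and 12.03 TPM. The targets of BMP went the other way in part. Id1 was measured at 5.36 and 3.67 TPM against 39.4 and 38.4 TPM, a log2 fold change of 3.64 ± 0.21 (edgeR adjusted p = 0.000113), and Id2 at 13.1 and 13.9 TPM against 45.2 and 39.5 TPM, while Id3, the most abundant, stood at 248 and 261 TPM against 302 and 239 TPM and was not called.

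The DNA methylation machinery was lower in 2iES cells at the de novo step. The de novo methyltransferases Dnmt3a and Dnmt3b were measured at 44.9 and 44.7 TPM against 3.24 and 2.52 TPM and 78.5 and 80.8 TPM against 6.08 and 7.84 TPM, with log2 fold changes of -3.13 ± 0.13 (edgeR adjusted p = 5.05e-05) and -2.92 ± 0.16 (edgeR adjusted p = 0.000101). Their cofactor Dnmt3l was measured at 148 and 146 TPM against 42.7 and 46.8 TPM, a log2 fold change of -1.23 ± 0.11. The maintenance genes Dnmt1 and Uhrf1 were measured at 16.96 and 17.6 TPM against 21.6 and 21.4 TPM and 40.8 and 40.2 TPM against 21.6 and 22 TPM and were not called. Tet1 and Tet2, which oxidize methylcytosine, were not called either, at 42.4 and 43.7 TPM against 40.8 and 61.5 TPM and 19.5 and 18.96 TPM against 12.4 and 17.03 TPM, and Tet3 was higher in E4.5 ICM at 1.41 and 1.54 TPM against 0.16 and 0.32 TPM. Of 13 listed genes 5 were higher in E4.5 ICM (38.5%) and 1, Zfp57, in 2iES cells (7.69%), against 18.4% and 15.2% of all genes.

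Imprinted genes are read mainly from 1 parental allele. Of 17 tested paternally expressed genes 10 were higher in 2iES cells and 2 in E4.5 ICM, with a median log2 fold change of 1.19. Of 11 maternally expressed genes 2 were higher in 2iES cells and 6 in E4.5 ICM, with a median of -1.11. Over both kinds 12 of 28 were higher in 2iES cells, 42.9%, against the 15.2% of all genes tested. The difference between the 2 parental groups was not tested. Allele-resolved reads were not used here.

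The maternally expressed RNAs of the Dlk1-Dio3 cluster on chromosome 12 were near or at 0 in 2iES cells. Meg3 (chr12:109541001-109571726) was measured at 21.1 and 26.2 TPM in E4.5 ICM and 0 and 0 TPM in 2iES cells and was at least 170-fold higher in E4.5 ICM. Rian, downstream of it, was measured at 3.78 and 4.38 TPM against 0 and 0.04 TPM, a ratio of 224-fold (95% Poisson interval 62.0 to 1848), and Mirg at 2.34 and 2.48 TPM against 0.01 and 0 TPM, a ratio of 71.3-fold (95% Poisson interval 12.8 to 2815). Both 2iES libraries were at or near 0 for all 3 RNAs. Dlk1, the paternally expressed gene of the cluster, was below the filter in both groups. Igf2r, H13 and Grb10 were also higher in E4.5 ICM, with log2 fold changes of -2.24 ± 0.14, -1.68 ± 0.13 and -1.11 ± 0.17, the last -0.92 without 2iES library 1. The exceptions among maternal genes were Phlda2, a growth regulator of the placenta, at 17.7 and 15.4 TPM against 97.0 and 88.7 TPM, and Ascl2, both on distal chromosome 7. H19 was measured at 4.45 and 3.77 TPM against 5.98 and 5.95 TPM and was not called, but passed 2-fold without 2iES library 2 (1.02) or ICM library 1 (1.15). Grb10 (-0.79 with the length offset) was no longer called under those settings.

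Among the paternally expressed genes the largest differences lay on proximal chromosome 6. Sgce and Peg10, divergent neighbours, were measured at 0.29 and 0.07 TPM against 10.1 and 11.01 TPM and 0.03 and 0.04 TPM against 1.20 and 1.42 TPM, with log2 fold changes of 6.07 ± 0.37 and 5.86 ± 0.30. Mest, a hydrolase gene of another imprinted domain, was measured at 2.51 and 3.31 TPM against 27.1 and 23.6 TPM, a log2 fold change of 3.73 ± 0.15 (edgeR adjusted p = 5.35e-05). Ndn and Snrpn, of the Prader-Willi region on chromosome 7, were measured at 0.09 and 0.19 TPM against 2.80 and 2.35 TPM and 103 and 105 TPM against 143 and 146 TPM. Plagl1, Impact, Nnat and Mcts2 had log2 fold changes of 3.67 ± 0.45, 1.19 ± 0.17, 2.61 ± 0.49 and 1.08 ± 0.14, and Mcts2 lies inside H13, so reads of the 2 genes may be mixed. All 2iES libraries were above all ICM libraries in these genes. Igf2 was called higher in 2iES cells, but 63% of its words occur in another gene. Sfmbt2 and Zrsr1 were the paternal genes higher in E4.5 ICM, and Zrsr1 lost its call without 2iES library 1 (-0.74) or ICM library 2 (-1.05). Without 2iES library 2, Snrpn (0.996), Impact (0.98) and Mcts2 (0.97) fell just under 2-fold. Snrpn (0.62 with library totals), Impact (0.79 with library totals), Mcts2 (0.69 with library totals, 0.39 with the length offset) and Zrsr1 (-0.70 with the length offset) were no longer called under those settings.

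**Figure D4:**
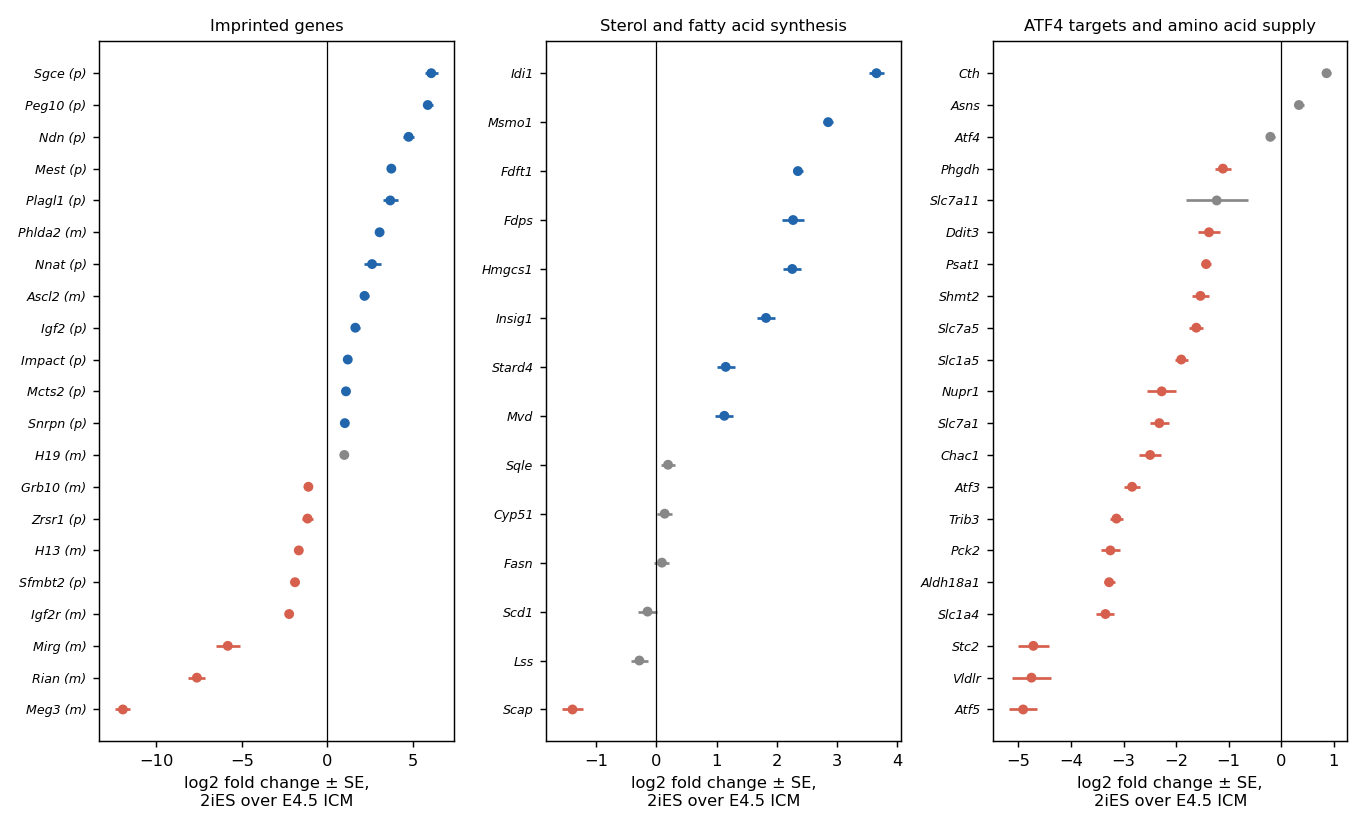
Fitted log2 fold change (x axis, 2iES cells minus E4.5 ICM, with bars for the SE) of the genes named in the text from 3 lists, in blue where called higher in 2iES cells, red where called higher in E4.5 ICM and grey where not called; p and m mark paternally and maternally expressed genes. Meg3, Rian and Mirg stand at the lower end of the imprinted genes and Sgce, Peg10 and Ndn at the upper end, and 1 sterol or fatty acid gene (Scap) but no ATF4 target breaks the direction of the calls in its list.

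All 9 listed sex chromosome genes were higher in E4.5 ICM, against 18.4% of all genes tested. Xist, the RNA that coats the inactive X chromosome, was measured at 7.83 and 8.91 TPM in E4.5 ICM and 0.04 and 0.57 TPM in 2iES cells, and its antisense gene Tsix at 16.7 and 16.3 TPM against 1.28 and 1.26 TPM. The library preparation did not mark strand, so reads of Xist and Tsix cannot be told apart where the genes overlap. The Y-linked genes Ddx3y and Eif2s3y were measured at 12.2 and 11.2 TPM against 0.11 and 0.07 TPM and 33.8 and 33.5 TPM against 1.01 and 0.89 TPM, with log2 fold changes of -6.65 ± 0.20 and -4.50 ± 0.15. Uty was measured at 5.42 and 8.03 TPM against 0 and 0.09 TPM, a ratio of 325-fold (95% Poisson interval 90.0 to 2683), and Kdm5d at 0.91 and 1.21 TPM against 0.05 and 0 TPM. The ICM libraries thus held reads of both Xist and the listed Y-linked genes, in which the 2iES libraries stood at or under 1.01 TPM. Of 8 genes on the Y chromosome with a mean TPM of at least 1, 6 were higher in E4.5 ICM and 1 in 2iES cells. E14 is known as a line from a male embryo. Whether the Y chromosome was still present in these cells was not tested.

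Chromosomes 6 and 8 had higher medians than the other autosomes. Over genes with a mean TPM of at least 1, the median log2 fold change was 0.45 on chromosome 6 (520 genes) and 0.39 on chromosome 8 (618 genes), against -0.13 to 0.10 on the other 17 autosomes. On chromosome 6, 33.1% of genes were called higher in 2iES cells and 12.3% higher in E4.5 ICM, and on chromosome 8, 28.5% and 10.7%. The other 17 autosomes had 12.8% to 20.5% higher in 2iES cells and 17.4% to 25.6% higher in E4.5 ICM. In bins of 20 Mb the medians on chromosome 6 ran from 0.24 to 1.19. On chromosome 8 they were 0.43 to 0.68 between 20 and 100 Mb, but 0.24 before 20 Mb, 0.16 from 100 to 120 Mb and 0.02 beyond 120 Mb, so the shift was uneven along it. Between the dTAG13 libraries of the same sources, which are separate samples, the medians were 0.54 and 0.38, against -0.21 to 0.22 elsewhere. Against morulae, the ICM medians of both chromosomes, 0.24 and 0.25, lay within the 0.08 to 0.35 of the other autosomes, whereas the 2iES medians of 0.70 and 0.64 lay above their range of 0.01 to 0.42. These comparisons share the ICM or the 2iES libraries. The excess over the other autosomes stayed when transcript length was entered as an offset (0.33 and 0.33 against -0.16 to 0.04). With library totals it stayed as well, on a lower scale (0.05 and -0.0018 against -0.52 to -0.29). Copy number was not tested, and genes of chromosomes 6 and 8 named here include Nanog, Gdf3, Gapdh, Tpi1, Ldhb, Mest, Sgce and Peg10 on the former and Zfp42, Klf2, Apela, Msmo1, Nqo1 and Mvd on the latter, the last 2 beyond 100 Mb.

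**Figure D5:**
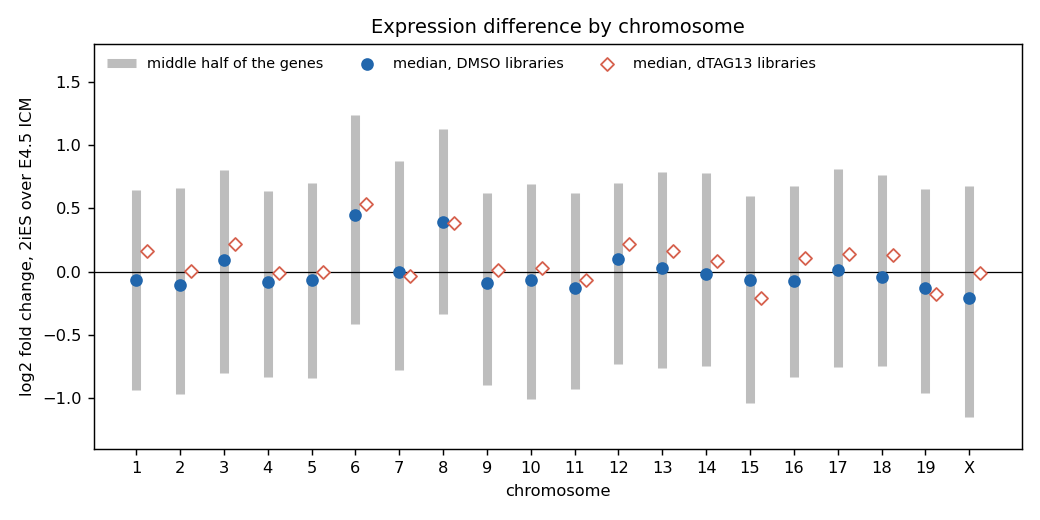
Fitted log2 fold change (y axis, 2iES cells minus E4.5 ICM) over the genes of each chromosome (x axis) with a mean TPM of at least 1, with blue points for the median between DMSO libraries, grey bars for their interquartile range and open diamonds for the median between dTAG13 libraries. Chromosomes 6 and 8 stand at 0.45 and 0.39 in the DMSO libraries, above the -0.13 to 0.10 of the other 17 autosomes.

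Energy metabolism differed in its glycolytic arm. Of 17 glycolytic enzymes 10 were higher in 2iES cells (58.8%) and 1 in E4.5 ICM (5.88%), against 15.2% and 18.4% of all genes. The enzymes had a median log2 fold change of 1.27. Ldhb, a lactate dehydrogenase subunit, had the largest difference at 9.54 and 7.93 TPM against 198 and 166 TPM, a log2 fold change of 4.76 ± 0.12 (edgeR adjusted p = 1.54e-05), and Ldha was measured at 189.8 and 199.7 TPM against 464 and 359 TPM. Of the words of Ldhb 33% occur in another gene. Eno1, Tpi1 and Pgam1 were measured at 194 and 201 TPM against 693 and 515 TPM, 67.7 and 71.7 TPM against 213 and 195 TPM and 225 and 234 TPM against 514 and 401 TPM. Gapdh, the most abundant, stood at 963 and 986 TPM against 2001 and 1639 TPM. In each of these enzymes the 2iES libraries were above the ICM libraries. The member higher in E4.5 ICM was Pfkl, the liver form of phosphofructokinase, at 40.7 and 44.9 TPM against 3.63 and 3.06 TPM, a log2 fold change of -3.17 ± 0.16, while its muscle form Pfkm was higher in 2iES cells at 2.03 and 2.07 TPM against 3.41 and 3.03 TPM. Hexokinase 2 (Hk2), pyruvate kinase (Pkm) and the glucose transporters Slc2a1 and Slc2a3 were not called. Hypoxia targets went in both directions, with 5 of 10 higher in E4.5 ICM, among them Vegfa (6.68 and 8.84 TPM against 0.83 and 0.54 TPM), Ndrg1 and P4ha1, and 2 higher in 2iES cells, Ankrd37 and Pdk1. Pfkm (0.80 with library totals) was no longer called under those settings.

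Transcripts of the mitochondrial genome took 12.0% and 10.8% of TPM in the ICM libraries and 0.930% and 5.47% in the 2iES libraries. The 2iES libraries stood far apart from each other. For mt-Nd1, of respiratory complex I, the levels were 6719.6 and 6667 TPM against 570.1 and 3369 TPM. Of 20 genes of the mitochondrial genome with a mean TPM of at least 1, 4 were called higher in E4.5 ICM. None of the 12 tested transcripts of the list was called by edgeR or DESeq2, and 2 passed an unadjusted p of 0.05. Their median log2 fold change was -1.32. Higher in E4.5 ICM among the 12 were 4 with library totals, 2 with the length offset and 8 with all 18 libraries in 1 fit. Without 2iES library 1 the median was -0.51 and 1 of the 12 was called, and without 2iES library 2 it was -3.31 with all 12 called. The dTAG13-treated 2iES libraries had 10.8% and 9.58%.

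The calls among cholesterol synthesis enzymes, by contrast, were all towards culture. Of 19 sterol synthesis enzymes 10 were higher in 2iES cells (52.6%), against 15.2% of all genes, with a median log2 fold change of 1.13. None was called higher in E4.5 ICM by edgeR or DESeq2, against 18.4% of all genes, and none passed an unadjusted p of 0.05 there. Idi1, which interconverts the isoprenoid building blocks, was measured at 11.2 and 12.3 TPM in E4.5 ICM and 118 and 91.5 TPM in 2iES cells, a log2 fold change of 3.65 ± 0.13 (edgeR adjusted p = 3.98e-05). Msmo1 and Fdft1, at the methyl removal and squalene steps, were measured at 34.8 and 35.8 TPM against 218 and 198 TPM and 16.3 and 17.2 TPM against 63.5 and 59.2 TPM. Hmgcs1, at the entry, was measured at 6.85 and 7.08 TPM against 20.6 and 24.6 TPM and Fdps at 56.1 and 63.0 TPM against 169 and 228 TPM. The 2iES libraries were above the ICM libraries in all 5. Sqle, Cyp51 and Lss were not called. Mvd fell just under 2-fold without 2iES library 1 (0.99). Insig1 and Stard4, which control sterol supply, were higher in 2iES cells with log2 fold changes of 1.82 ± 0.15 and 1.15 ± 0.15, and the SREBP escort Scap was higher in E4.5 ICM. None of 7 fatty acid synthesis genes, Fasn and Scd1 among them, was called by edgeR or DESeq2. Towards E4.5 ICM 3 of them passed an adjusted p of 0.05. Mvd (0.74 with library totals), Stard4 (0.76 with library totals, 0.92 with the length offset) and Scap (-0.90 with the length offset) were no longer called under those settings. A letter match to the SREBP site TCACNCCAC, searched on both strands from 250 bases before to 50 after the gene start, was found in 1 of 22 list promoters held in the RefSeq table, 4.55%, against 1.44% of all 27025 promoters. It is shown for Hmgcs1 (GRCm38.p6, 30 bases, chr13:119690203-119690232, + strand) with the match in capitals.
Hmgcs1: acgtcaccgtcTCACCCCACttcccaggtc

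The genes of the amino acid response went the other way. ATF4 is a transcription factor translated when amino acids run short or the endoplasmic reticulum is stressed, and it switches on genes for amino acid synthesis and uptake through a composite CEBP-ATF element. Of 27 listed targets 18 were higher in E4.5 ICM (66.7%), against 18.4% of all genes, with a median log2 fold change of -1.54. None was called higher in 2iES cells by edgeR or DESeq2, against 15.2% of all genes. Asns and Cth passed an adjusted p of 0.05 towards 2iES cells but were not called. The letters TGATGNAA, the common core of that element, were searched on both strands in the same window. They were found in 9 of 23 list promoters held in the RefSeq table (39.1%), in 7 of the 16 whose gene was higher in E4.5 ICM and in 2 of the 7 not called, against 4.51% of all 27025 promoters and 2.7% of those of 10944 tested genes. The list was drawn up from known ATF4 targets, so this share is not evidence about these samples. For each gene with a window wholly before its start, 1 window is given here, for the 5 such members called and for the 2 not called, Slc7a11 and Asns (Slc7a11 held a second match on the opposite strand), each 30 bases 5′ to 3′ on the strand of the gene (RefSeq, GRCm38.p6), with the match in capitals. Matches that begin with TT are the element read from the opposite strand.
Atf3: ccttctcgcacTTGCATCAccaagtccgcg
Chac1: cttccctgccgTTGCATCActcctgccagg
Nupr1: aaagggccagaTTGCATCAgacagggcttg
Pck2: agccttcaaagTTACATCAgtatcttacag
Vldlr: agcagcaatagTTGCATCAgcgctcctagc
Asns: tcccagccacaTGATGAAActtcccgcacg
Slc7a11: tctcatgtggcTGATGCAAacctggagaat
The positions are chr1:191183425-191183454 (- strand) for Atf3, chr2:119351038-119351067 (+ strand) for Chac1 and chr7:126625562-126625591 (- strand) for Nupr1. They are chr14:55540152-55540181 (+ strand) for Pck2, chr19:27216809-27216838 (+ strand) for Vldlr, chr6:7693214-7693243 (- strand) for Asns and chr3:50443661-50443690 (- strand) for Slc7a11.

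Atf4 itself was measured at 105 and 106 TPM in E4.5 ICM and 67.3 and 58.9 TPM in 2iES cells, a log2 fold change of -0.21 ± 0.09 (edgeR adjusted p = 0.0862), and was not called. ATF4 is controlled in large part by translation, which these data did not measure. The stress factors below it were the most uniform, with 9 of 11 higher in E4.5 ICM. Nupr1, a small chromatin protein, was measured at 500 and 555 TPM against 57.7 and 96.3 TPM. Trib3, a pseudokinase that restrains the response, was measured at 33.9 and 35.9 TPM against 2.88 and 2.67 TPM, a log2 fold change of -3.14 ± 0.12 (edgeR adjusted p = 4.93e-05). Chac1, which degrades glutathione, and Atf3 were measured at 15.9 and 16.6 TPM against 2.39 and 1.59 TPM and 11.6 and 12.2 TPM against 1.20 and 1.08 TPM. Ddit3 (CHOP) and Atf5 were measured at 38.9 and 40.9 TPM against 8.42 and 11.9 TPM and 5.68 and 6.2 TPM against 0.16 and 0.11 TPM, and Stc2 and Vldlr at 5.27 and 5.24 TPM against 0.07 and 0.44 TPM and 1.44 and 2.30 TPM against 0.1 and 0.03 TPM. No 2iES library reached the lower ICM library in any of these genes.

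Of the amino acid synthesis genes 5 of 9 were higher in E4.5 ICM. The proline pathway gene Aldh18a1 was measured at 39.8 and 39.8 TPM against 2.85 and 2.86 TPM, a log2 fold change of -3.27 ± 0.10 (edgeR adjusted p = 3.05e-05), and Pck2 at 26.3 and 30.5 TPM against 2.26 and 1.08 TPM. The serine and one-carbon genes Psat1, Phgdh and Shmt2 were measured at 257 and 252 TPM against 66.4 and 58.4 TPM, 66.8 and 70.7 TPM against 25.5 and 18.5 TPM and 86.4 and 87.0 TPM against 23.6 and 17 TPM, and Phgdh fell under 2-fold without 2iES library 2 (-0.89). Asns, asparagine synthetase and a standard ATF4 target, was an exception at 558 and 561 TPM against 456 and 512 TPM and was not called, nor was Cth. Of the transporters 4 of 7 were higher in E4.5 ICM: Slc7a5, which imports large neutral amino acids, Slc7a1, Slc1a4 and Slc1a5, with log2 fold changes of -1.62 ± 0.13, -2.32 ± 0.18, -3.34 ± 0.17 and -1.90 ± 0.13. Slc7a11, the cystine carrier, stood at or under 0.11 TPM in all 4 libraries. ES medium supplied non-essential amino acids. The part of medium composition in these values was not tested. Phgdh (-0.996 with upper-quartile scaling) was no longer called under those settings.

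The p53 targets had 6 of 21 higher in 2iES cells (28.6%) and 1 in E4.5 ICM (4.76%), against 15.2% and 18.4% of all genes. Cdkn1a (p21), the CDK inhibitor induced by p53, was measured at 36.7 and 38.8 TPM against 124 and 116 TPM, a log2 fold change of 2.09 ± 0.09 (edgeR adjusted p = 6.77e-05). The death effector Bax was measured at 335 and 368 TPM against 709.5 and 509 TPM, and Perp, Ckap2, Btg2 and Rrm2b were the other 4 members higher in 2iES cells, Rrm2b no longer so without 2iES library 2 (0.89). Bbc3 (PUMA) was higher in E4.5 ICM at 2.34 and 1.68 TPM against 0.64 and 0.51 TPM, a call lost without ICM library 1 (-1.15). Trp53 and Mdm2 were not called, at 96.0 and 99.1 TPM against 77.4 and 81.6 TPM and 40.6 and 42.4 TPM against 44.4 and 31.8 TPM. Bax (0.94 with library totals, 0.63 with the length offset), Btg2 (0.998 with library totals) and Rrm2b (0.63 with library totals, 0.69 with the length offset) were no longer called under those settings.

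Among the cyclins Ccnd1 and Ccne1, which drive entry to S phase, were higher in 2iES cells, the latter at 47.6 and 46.6 TPM against 90.7 and 69.5 TPM, as was Ccnb2, which fell to 0.96 without 2iES library 1. Ccnd2 was higher in E4.5 ICM at 28.9 and 12.2 TPM against 3.43 and 3.87 TPM, with an uneven pair of ICM libraries, and Ccnd3 was not called (-1.10, and called, without 2iES library 1). Of the CDK inhibitors Cdkn2d and Cdkn2b were higher in 2iES cells along with Cdkn1a, and Cdkn2c was higher in E4.5 ICM at 1.28 and 1.48 TPM against 0.09 and 0.07 TPM. Over the list of 15, 6 were higher in 2iES cells (40%) and 2 in E4.5 ICM (13.3%), against 15.2% and 18.4% of all genes. Ccne1 (0.91 with library totals) and Ccnb2 (0.67 with library totals, 0.83 with the length offset) were no longer called under those settings.

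Cytoskeletal genes had 9 of 15 tested actin and filament members higher in 2iES cells (60%) and 2 in E4.5 ICM (13.3%). All genes tested had 15.2% and 18.4%. Lgals1, a galectin, was measured at 31.6 and 33.8 TPM in E4.5 ICM and 297 and 295 TPM in 2iES cells, a log2 fold change of 3.72 ± 0.10 (edgeR adjusted p = 1.94e-05). The calcium-binding S100a6 was measured at 44.2 and 36.4 TPM against 230.4 and 217 TPM and the actin-binding Cald1 at 1.3 and 0.68 TPM against 12.1 and 12.6 TPM. Tagln, Tpm2 and Myl9 were measured at 0.45 and 0.18 TPM against 4.86 and 6.44 TPM, 4.14 and 5.30 TPM against 23.7 and 18.9 TPM and 2.17 and 1.56 TPM against 12.8 and 9.42 TPM. The 2iES libraries were above the ICM libraries in all 6. With library totals the whole list had 8 genes higher in each group, against 10 and 4. The nuclear lamin gene Lmna and the filament gene Vim went the other way, at 49.8 and 51.04 TPM against 7.10 and 3.68 TPM and 21.3 and 26.8 TPM against 7.19 and 6.70 TPM. Fibroblast markers were near 0 in these 2iES libraries, with sums of 0.52 and 0.73 TPM. Of 12 tested adhesion and matrix genes 1 was higher in 2iES cells (Igfbp2) and 2 in E4.5 ICM (Itga5 and Cdh2). Itga5 (-0.80 with the length offset) was no longer called under those settings.

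Of 14 tested interferon-related genes 5 were higher in 2iES cells (35.7%) and 1 in E4.5 ICM (7.14%), against 15.2% and 18.4% of all genes. Beside Ifitm1 and Ifitm3 these were Bst2, a tetherin of virions, at 13.5 and 12.7 TPM against 66.9 and 61.9 TPM, the RNA sensor Ddx58 (RIG-I) at 14.8 and 13.2 TPM against 24.3 and 23.6 TPM and the factor Irf1 at 2.56 and 2.54 TPM against 7.98 and 5.42 TPM. Their neighbour Ifitm2 was abundant in both groups at 749.8 and 781 TPM against 772 and 923 TPM and was not called. Ifi27 was higher in E4.5 ICM at 4.23 and 5.11 TPM against 0.25 and 0.26 TPM. Isg15 was at or under 0.09 TPM in all 4 libraries.

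The genes of the Zscan4 cluster, a mark of the rare ES cells that pass through a state resembling the 2-cell embryo, had reads only in the 2iES libraries. Zscan4c was measured at 0 and 0 TPM in E4.5 ICM and 2.35 and 15.1 TPM in 2iES cells and was at least 195-fold higher in 2iES cells, and Zscan4f and Zscan4a were measured at 0 and 0 TPM against 3.05 and 21.4 TPM and 0 and 0 TPM against 2.85 and 9.03 TPM. Library 2 of the 2iES cells was the higher one in each of the 5 tested members. The Zscan4 genes share 65% to 95% of their words, so the split among them is uncertain. Of 7 other tested genes of that state none was called higher in 2iES cells and 2 were called higher in E4.5 ICM. All genes tested had 15.2% and 18.4%, and the median log2 fold change of the 7 was 0.02. At an unadjusted p of 0.05 there were 2 towards 2iES cells, and 1 at an adjusted p of 0.05. The 2 higher in E4.5 ICM were Zfp352 and Sp110. They were measured at 1.01 and 1.08 TPM against 0.02 and 0.07 TPM and 6.36 and 6.88 TPM against 0.18 and 0.5 TPM.

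Without regard to lists, the called genes with the largest differences among those with a mean TPM of at least 50 in either group were named. Towards 2iES cells these were Halr1, Bex1, Tdrd12, Bex4, Apela, Nqo1, Ldhb, Pla2g1b, Rpph1, Tmsb4x, Saa3 and Ifitm3. Halr1 (chr6:52102949.0-52113684.0), a long non-coding RNA beside the HoxA cluster, was measured at 0.94 and 0.14 TPM in E4.5 ICM and 59.9 and 95.3 TPM in 2iES cells, a log2 fold change of 7.64 ± 0.51 (edgeR adjusted p = 0.000164). Bex1 and Bex4, X-linked adaptor genes, were measured at 27.3 and 26.8 TPM against 912 and 798 TPM and 12.9 and 14.1 TPM against 328 and 300.4 TPM, and 40.0% and 59.9% of their words occur in other genes. Tdrd12, of the piRNA pathway, was measured at 3.39 and 3.97 TPM against 83.0 and 74.4 TPM. Apela, a peptide hormone of early embryos and ES cells, was measured at 5.14 and 4.84 TPM against 80.6 and 123 TPM, and Nqo1, a quinone reductase under NRF2 control, at 5.65 and 4.93 TPM against 105 and 102 TPM. Pla2g1b and Saa3, a secreted phospholipase and an acute phase protein, were measured at 12.8 and 11.9 TPM against 154 and 278 TPM and 7.90 and 7.92 TPM against 59.3 and 88.2 TPM. Rpph1 is the RNA of ribonuclease P, which carries no poly(A) tail, and 70% of its words occur in another gene.

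Towards E4.5 ICM the leading genes were Gm10260, Aqp8, Pth1r, Xlr5a, Timd2, Akr1c13, Havcr1, Gm48168, Sox17, Shisal2b, Xlr3a and Nostrin. Havcr1, a neighbour of Timd2 on chromosome 11 and of the same receptor family, was measured at 73.9 and 73.8 TPM in E4.5 ICM and 0.2 and 0.08 TPM in 2iES cells, a log2 fold change of -9.12 ± 0.17 (edgeR adjusted p = 9.23e-06). Shisal2b and Nostrin were measured at 211 and 195 TPM against 0.38 and 0.16 TPM and 56.9 and 57.9 TPM against 0.11 and 0.16 TPM. Xlr3a (chrX:73086293.0-73097095.0) and Xlr5a, of an X-linked family related to Sycp3, were measured at 232 and 226 TPM against 0.57 and 0.79 TPM and 54.6 and 51.3 TPM against 0 and 0.05 TPM. Akr1c13 and the non-coding Gm48168 were measured at 51.9 and 50.4 TPM against 0 and 0.08 TPM and 117 and 112 TPM against 0.16 and 0.15 TPM. The 2iES libraries were at or under 0.79 TPM for all of these genes. Gm10260, Xlr5a, Xlr3a, Gm48168 and Akr1c13 have 96.6%, 89.6%, 60%, 56% and 34% of their words in other genes, so their values are uncertain.

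The direction of a difference moved with transcript length. In the fifth of tested genes with the shortest effective length the median log2 fold change was 0.61 and 30.7% were higher in 2iES cells, and in the fifth with the longest it was -0.49 and 4.76% were. Ribosomal protein genes, short and abundant, had 41 of 79 higher in 2iES cells (51.9%, against 15.2% of all genes) with a median of 1.03. With length as an offset the same list had 0 called higher in 2iES cells and a median of 0.30, and with library totals 4. Ribosomal protein genes were named after the values were seen. With the same offset the ATF4 list had 19 genes higher in E4.5 ICM, the PrE list 32, and the glycolysis and sterol lists 14 and 13 higher in 2iES cells.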

How the data were processed

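Poly(A) RNA from E4.5 ICM and 2iES cells was amplified with SMART-Seq v4 and made into libraries with Nextera XT, which does not mark strand. Per the labels and the study's methods, reads were trimmed (Trimmomatic 0.39), aligned with STAR to GRCm38 and quantified with RSEM, and the authors deposited 1 table per sample with expected counts, TPM and FPKM per gene. The expected counts are estimates that were rounded here to whole numbers. TPM and FPKM were used as deposited, for levels and for the FPKM limit. The 4 DMSO libraries held 19246159 to 27660050 counts, and this depth and 2 replicates a group set the precision, and the intervals given for genes with 1 to 3 counts cover counting error only.

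Genes that reached 10 counts in 2 or more of the 4 libraries were tested with edgeR 4.0.16 (TMM scaling, quasi-likelihood F test, Benjamini-Hochberg adjustment), with the group as the only term. In a single-gene permutation, 2 against 2 libraries cannot give p below 0.333. For groups at 0 reads, folds are bounds against 3 counts per library. Counts were simulated from these libraries, with 100 genes changed 2-fold and 100 changed 4-fold. Of these, 88 and 100 passed the adjusted p in the right direction. The fold and FPKM limits were not applied to them, so these are not shares of genes called. Of the unchanged genes, 4 passed the adjusted p together with the 2-fold limit. Of 55385 identifiers, 55144 had a GENCODE M21 position and 241 no name. Overlap with other genes was counted over 31-base words of the transcripts.

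The comparison, the 27 gene lists and the rule for named genes were chosen with earlier results of these data known. Named genes are the GABP subunits, list members, the 12 called genes in each direction with the largest fold change and a mean TPM of at least 50, and by the same rule 8 of the study's EPI and PrE lists. The motifs and the ribosomal protein list were chosen after the values were seen. Alternatives changed the scaling, filters, thresholds, tool and offset, or left out a library. Samples were grouped by the labels alone. The CUT&RUN and ATAC-seq samples were not used. The other RNA-seq samples were used for the spread of replicate pairs and in the fit of all RNA-seq libraries. Beyond that, only the RNA-seq of morulae and dTAG13-treated samples was used, where named. No set test or resampling over genes was run. Some list members are counted but not reported by name here.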

Additional observations from a re-analysis of the deposited data

How the results depend on the processing

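The counts of genes higher in 2iES cells and in E4.5 ICM, 2376 and 2875, both stayed within 1.5 times under 17 of the 20 alternatives. Calls at 4-fold numbered 795 and 1206, with 20 and 7 EPI genes and 1 and 105 PrE genes of the study's lists. Without a fold limit they numbered 4219 and 4432, with 44 EPI genes higher in E4.5 ICM and 14 PrE genes higher in 2iES cells. With library totals as the only scaling they numbered 1427 and 4057, with 41 and 36 EPI genes and 2 PrE genes higher in 2iES cells. DESeq2 gave 2371 and 2612, and an offset for transcript length 1895 and 2736. Leaving out each library in turn gave 2184 to 2548 and 2683 to 3024 genes, 59 to 68 and 20 to 25 EPI genes, and 7 to 9 and 161 to 171 PrE genes.

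The replicate numbers do not pair an embryo library with a cell library: the correlation of deviations between same-numbered libraries was -0.055. A fit with the replicate block gave 2364 and 2918 genes, called all 12 mitochondrial transcripts and changed no other call among the genes named.

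Some fold changes near 0 changed sign. They did so with library totals for Apoe -0.32, Asns -0.057, Cyp51 -0.25, Esrrb -0.13, Fasn -0.30, Fgfr1 -0.28, Ier2 -0.29, Krt8 -0.21, Nr5a2 -0.19, Pkm -0.35, Sox2 -0.18, Sqle -0.20, Tdgf1 -0.27, Tet1 -0.14, Tet2 -0.30, Trp53 -0.16, Utf1 -0.35 and Zfp42 -0.28, and with the length offset for Apoe -0.41, Etv5 0.13, Gabpa 0.027, Ier2 -0.14, Ifitm2 -0.0049, Lss 0.20, Sall4 0.29, Scd1 0.23, Socs3 0.22, Suz12 0.17, Uhrf1 0.13 and Utf1 -0.44. Upper-quartile scaling turned Sall4 0.089 and Socs3 0.014. Sall4 stood at 0.023 with DESeq2 or its size factors, 0.038 with all 18 libraries and 0.0089 with the higher count limit. Leaving out 2iES library 1 turned Apoe, Fasn, Ier2, Pkm, Sall4, Scd1, Suz12 and Utf1, and leaving out 2iES library 2 turned Nr5a2, Sox2, Tdgf1, Tet1, Tet2 and Zfp42. Over the 4 fits that leave out a library the values ran from -0.15 to 0.29 for Apoe, -0.028 to 0.24 for Fasn, -0.21 to 0.40 for Ier2, -0.11 to 0.49 for Nr5a2, -0.15 to 0.24 for Pkm, -0.21 to 0.17 for Sall4, -0.30 to 0.025 for Scd1, -0.061 to 0.47 for Sox2, -0.62 to 0.24 for Suz12, -0.21 to 0.42 for Tdgf1, -0.084 to 0.55 for Tet1, -0.17 to 0.34 for Tet2, -0.25 to 0.32 for Utf1 and -0.087 to 0.31 for Zfp42. None of these genes was called in the report, and the cause was not tested.
Of 285 genes named, 20 lost their call with library totals, 19 with the length offset, 3 with DESeq2 and 5 with upper-quartile scaling, each given beside its result. With the FPKM limit set on the mean of the 4 libraries Cdkn2c, Kdm5d, Lin28b, Peg10, Sox11, Taf7l, Tet3, Tuba3b and Zfp352 missed it. Library totals added Axin2 (-1.27), Bmp4 (-1.33), Ccnd3 (-1.24), Gabpb2 (-1.12) and Klf2 (-1.10), the length offset Dusp6 (1.09) and Slc2a3 (1.04), and DESeq2 H19 (1.03) and Ier3 (1.003). With 2 libraries a group the spread rests on few values, the ICM libraries lay close together, and source, culture, clone and library batch cannot be told apart.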

Other observations

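Genes of the germline, some of which naive cells express, gave 4 of 23 tested higher in 2iES cells and 7 in E4.5 ICM. The shares of 17.4% and 30.4% stood against 15.2% and 18.4% of all genes tested. Fkbp6, needed for meiotic pairing and piRNA, was measured at 76.2 and 80.5 TPM in E4.5 ICM and 2.49 and 2.47 TPM in 2iES cells, a log2 fold change of -4.53 ± 0.13 (edgeR adjusted p = 2.26e-05). Ddx4 (VASA), a germ cell helicase, was measured at 3.62 and 3.56 TPM against 11.9 and 12.1 TPM, higher in 2iES cells, and Taf7l had no read in E4.5 ICM and was at least 22.9-fold higher in 2iES cells. Asz1, Piwil2, Tuba3a, Tuba3b and Rhox5 were among the others higher in E4.5 ICM. Of the oocyte transcripts 7 of 19 could be tested, and Khdc3 was higher in E4.5 ICM while Ooep, at 64.3 and 62.2 TPM against 87.7 and 86.7 TPM, and Zp3 were higher in 2iES cells, the former just under 2-fold without ICM library 2 (0.97). Piwil2 (-0.99 with the length offset) and Ooep (0.61 with library totals) were no longer called under those settings.

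Of 17 Polycomb genes, which keep developmental genes silent, 1 was higher in 2iES cells (5.88%) and 3 in E4.5 ICM (17.6%), against 15.2% and 18.4% of all genes tested. The PRC2 core gene Eed was measured at 314 and 299.9 TPM in E4.5 ICM and 574 and 568 TPM in 2iES cells, a log2 fold change of 1.43 ± 0.08 (edgeR adjusted p = 0.000108), while Ezh2 and Suz12 were not called, at 89.4 and 88.0 TPM against 83.6 and 112 TPM and 30.4 and 27.9 TPM against 13.1 and 22.1 TPM (Ezh2 was at 1.04, and called, without 2iES library 1). Epop, Bmi1 and Ring1 were higher in E4.5 ICM, at 48.2 and 52.98 TPM against 7.96 and 7.45 TPM, 9.56 and 8.54 TPM against 1.57 and 1.16 TPM and 4.44 and 3.99 TPM against 0.8 and 0.38 TPM. By gene type, 246 of 888 tested pseudogenes were higher in 2iES cells and 163 in E4.5 ICM, against 177 and 183 of 1079 long non-coding genes and 1922 and 2466 of 13271 protein-coding genes. Reads of pseudogenes can come from their parent genes. Eed (0.97 with the length offset) was no longer called under those settings.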
